A study of Brassica juncea with 9 samples.

Results

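Leaves of *Brassica juncea* (Indian mustard) grown in alkaline salt were compared with leaves of unstressed controls. The comparison rests on 6 of the 9 samples of the series, 3 alkaline salt plants and 3 control plants, chosen by their sample titles. Alkaline salt plants received 50 mM NaCl with 2.5 mM bicarbonate and controls received neither. The remaining 3 plants of the series received 50 mM NaCl alone and are called salt plants. Their arrays entered the fit as a group of their own, so the spread behind each p-value and interval includes them. Treatment lasted 4 weeks in both stress groups, and all plants were of genotype NDR 8501, aged 5 weeks and raised in aerated, modified Hoagland solution in a glasshouse. Each sample was RNA of a middle, fully expanded leaf from a single plant, hybridised to 1 one-colour Cy3 array, and the labels call the 3 plants of a group biological replicates. The study used 1 genotype, 1 organ and 1 time, and no plants received bicarbonate without NaCl, so the comparison takes NaCl and bicarbonate together.

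Bicarbonate buffers the root medium at an alkaline pH. At such a pH iron, zinc and phosphate become less available to roots, and proton gradients that drive nutrient uptake and sodium export across the root plasma membrane are reduced. In leaves, alkaline salinity is known for iron-deficiency chlorosis on top of the osmotic and sodium stress that neutral salt brings. The array names each probe by the identifier of an expressed sequence and gives no gene name, description or probe sequence. Gene groups of these pathways, and leaf marker genes as a check on the tissue, could therefore not be followed, and the results below describe probes.

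Between 39.5% and 48.2% of 43603 probes were well above background on an alkaline salt array, against 39.5% to 46.4% on a control array. Across all 9 arrays the range was 38.5% to 50.6%, and the largest share belonged to a salt plant. The net signal of the negative control spots ran from 535 to 1723 in alkaline salt arrays and from 970 to 1784 in control arrays, so the ranges of the groups overlapped. Levels are given as log2 processed intensity minus the 75th percentile of the array, called log2 scaled signal. A level of 0 is thus the signal below which 75% of the probes of that array lie. The test took in the 17801 probes, of 16371 transcript identifiers, that at least 1 of the 3 groups showed well above background in all of its 3 plants. In bulk leaf RNA, fewer cells of a type and less RNA per cell cannot be told apart.

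Alkaline salt plants had 1425 probes at a higher level and 1754 at a lower level than control plants (limma, adjusted p under 0.05), or 8.01% and 9.85% of those tested. Both directions together made up 17.9% of tested probes, and 1354 transcript identifiers had a probe that was higher and 1640 a probe that was lower. Which direction held more probes depended on the processing: rises outnumbered falls with the percentile taken over detected probes (1679 against 1618), after scaling to the array median (777 against 710), with no filter on dim probes (794 against 681) and without control replicate 1 (1014 against 966). With the salt arrays left out of the fit the counts were near balance, at 1213 higher and 1229 lower. Large changes were more often rises. Counting a bound where one group measured the probe on none of its arrays, rises of at least 4-fold numbered 411 (2.31%) and falls of that size 265 (1.49%). Of these, 200 rises and 96 falls were of probes well above background on all 6 arrays. At 16-fold or more there were 62 rises and 12 falls, of which 13 and 1 were measured on all 6. Probes measured on only some arrays of a group had no bound, so signals at background can enter their sizes. The median change over all tested probes was −0.02 on the log2 scale.

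**Figure D1:**
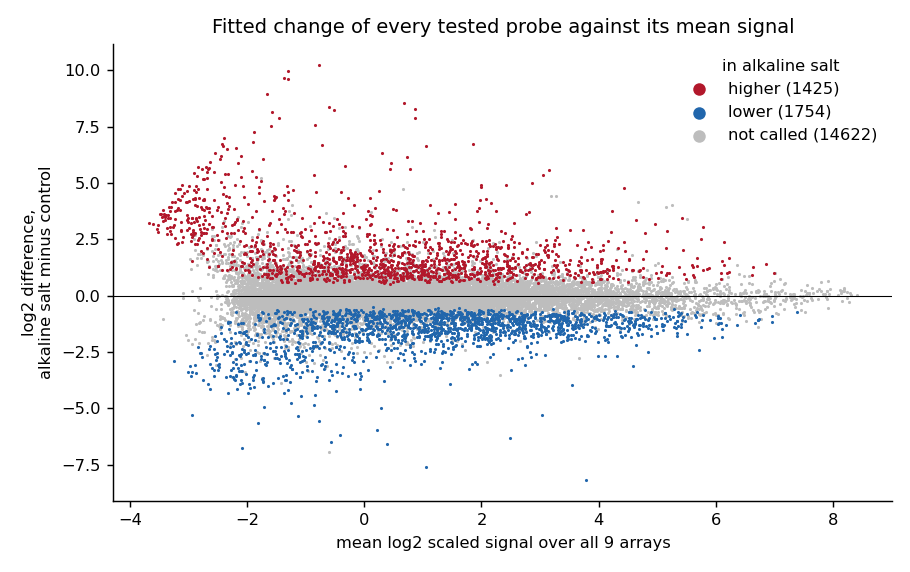
Each point is 1 of 17801 tested probes, with its mean log2 scaled signal over all 9 arrays on the x axis and its fitted log2 difference, alkaline salt minus control, on the y axis. Red points (1425) were higher and blue points (1754) lower in alkaline salt at an adjusted p under 0.05. The tall rises lie mostly at low mean signal, a place that a mean over mostly control and salt arrays gives them in part by itself.

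The sizes are best seen in the 14948 probes that all 6 arrays measured well above background. Dim signals remain among them, so a size can still depend on the background correction, as for A_46_P183159 below. Of these, 1027 were higher (6.87%) and 1386 lower (9.27%) in alkaline salt. The median change was 2.44-fold among the rises and 2.32-fold among the falls. The smallest changes called were 1.43-fold in both directions. At least 2-fold changes made up 741 of the rises and 963 of the falls, so most calls in both directions passed that size. At 4-fold the order turned: 200 of the rises, or 19.5%, were at least 4-fold, against 96 of the falls, or 6.93%. There were 45 rises and 12 falls of at least 8-fold, and 13 rises and 1 fall of at least 16-fold.

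**Figure D2:**
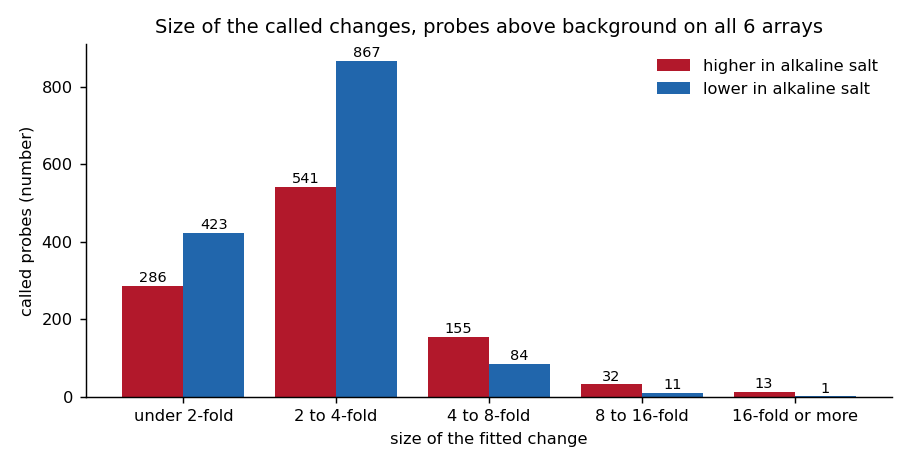
Bars count called probes well above background on all 6 arrays, by size of the fitted change, with probes higher in alkaline salt in red and lower in blue. Falls outnumber rises up to 4-fold (423 against 286 and 867 against 541), and rises outnumber falls beyond it.

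The precision of the fit was set by 3 arrays per group, with the salt arrays sharing in the estimate of the spread. The median 95% confidence interval of a log2 difference was 0.61 wide on either side. For 295 of the rises and 239 of the falls the interval lay wholly beyond 2-fold. Among the 12535 probes measured on all 6 arrays and not called, the interval lay within 2-fold in both directions for 7730, or 61.7%. For the other uncalled probes the interval did not exclude a change of 2-fold. Among the uncalled probes, 31 differed by 4-fold or more in the means. Their median SD was 0.47 among alkaline salt plants and 1.48 among control plants, against 0.24 and 0.29 over all probes measured on 6 arrays. Among salt plants, which share in the fitted spread, it was 0.91 against 0.24. A change of that size stays uncalled only where the fitted spread is large, so a high SD follows from the choice of these probes.

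The 4 probes below have the largest rises and falls among called probes measured on all 6 arrays whose alkaline salt and control plants did not overlap, a separation that 37% of all tested probes showed. The array pairs their identifiers with no gene, so only their levels can be described.

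A_46_P183159 had a log2 scaled signal of 4.94, 4.30 and 4.60 in alkaline salt replicates 1 to 3, against −1.50, −1.72 and −1.88 in control replicates 1 to 3. The groups were far apart and each was tight. Its log2 difference was 6.31 (SE 0.26, n = 3 per group, limma adjusted p = 1.10e-05), which is 79.5-fold, with a 95% confidence interval of 5.72 to 6.91. With normexp correction the log2 difference was 4.77, below that interval and below the 5.06 of the next probe under the same correction. The control levels were well above background but not far above −2.06, the floor given to dim signals in an alternative fit. The 79.5-fold size thus rests on a dim control level. The salt plants, at −1.97, −2.41 and −1.59, lay near the controls and were not all well above background.

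A_46_P275293 stood at 6.57, 6.08 and 6.45 in alkaline salt plants, against 0.78, 0.95 and 1.29 in control plants. All alkaline salt plants exceeded all controls by a wide margin. The log2 difference was 5.36 (SE 0.46, n = 3 per group, limma adjusted p = 0.000338), or 41.0-fold. Salt replicate 1 was at 2.94, above the controls, while salt replicates 2 and 3 were at 1.44 and 0.95.

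A_46_P144744 stood at 0.74, 0.72 and 3.22 in alkaline salt plants, against 6.85, 7.45 and 6.31 in control plants. Alkaline salt replicate 3 was well above the other alkaline salt plants, yet below every control. The log2 difference was −5.31 (SE 0.69, n = 3 per group, limma adjusted p = 0.00193), or 39.7-fold lower. The salt plants were also low, at 0.67, 1.40 and −0.03. The other tested probe of this transcript was well above background in 0 of 3 alkaline salt plants and was at least 5.13 lower on the log2 scale than in controls (limma adjusted p = 0.000156). A bound of this kind sets the mean of the brighter group against the mean, per array, of the higher of the lowest signal well above background and the probe's own signal.

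A_46_P343070 stood at 1.62, 0.10 and 0.34 in alkaline salt plants, against 6.14, 5.63 and 2.16 in control plants. Control replicate 3 was far below the other controls and close to alkaline salt replicate 1, so the groups were only just apart. The log2 difference was −3.96 (SE 0.94, n = 3 per group, limma adjusted p = 0.0217), or 15.6-fold lower, and its 95% confidence interval of −6.10 to −1.82 was the widest of these 4. The call was lost without control replicate 1 (limma adjusted p = 0.0697), control replicate 2 (0.0779), alkaline salt replicate 2 (0.0663) or alkaline salt replicate 3 (0.0781), and without the salt arrays in the fit (0.0533). Without control replicate 3 the log2 difference was −5.20 (limma adjusted p = 0.000889). The salt plants were high, at 4.99, 5.11 and 5.84.

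**Figure D3:**
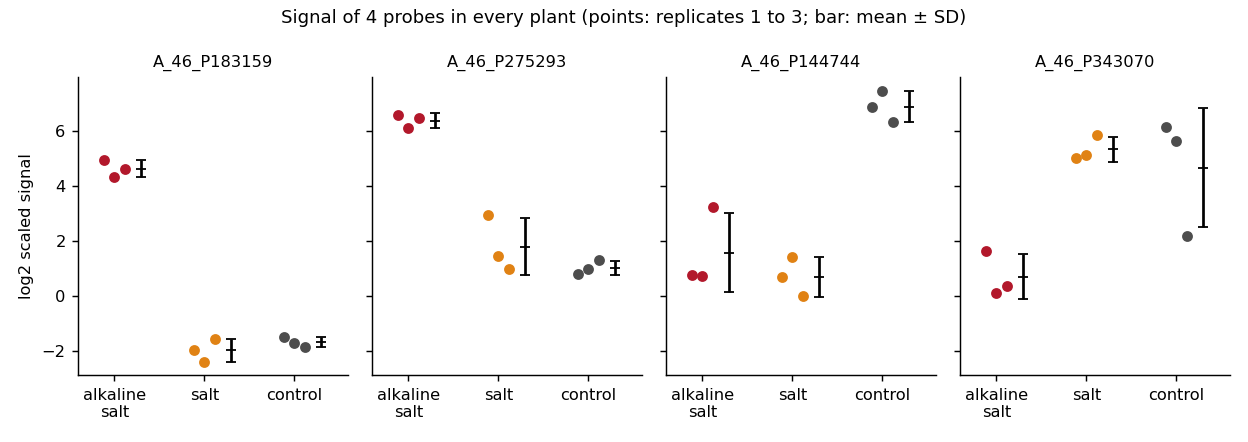
Points are the log2 scaled signal of each plant for 4 probes, with replicates 1 to 3 from left to right in alkaline salt, salt and control, and bars give the mean and SD of each group (n = 3). The alkaline salt and control plants do not overlap in any panel; control replicate 3 lies at 2.16 for A_46_P343070, far from the other controls.

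Besides changes of level, some transcripts crossed the detection limit. There were 244 tested probes well above background in all 3 alkaline salt plants and in 0 of 3 controls, and 213 of them were called higher. The median bound on their rise was 3.81-fold, 101 had a bound of at least 4-fold, and the largest bound was 265-fold. In the other direction, 110 probes were well above background in all 3 controls and in 0 of 3 alkaline salt plants, of which 100 were called lower, with a median bound of 3.38-fold and 38 at 4-fold or more. A probe that enters the test only through the group where it is bright had to differ, so the high shares called in these classes are no result. The salt arrays played no part in defining the detection classes, though they share in the fitted spread behind the calls. On the salt arrays 109 of the 213 rising probes were well above background in no plant and 4 in all 3 plants. Of the 100 falling probes, 46 were well above background in all 3 salt plants and 3 in none. The like shares over all tested probes are not given here, so these counts are a description.

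Probes seen in only some plants of a group lay between these classes. Of 924 probes well above background in all alkaline salt plants and in 1 or 2 controls, 182 (19.7%) were higher and 1 was lower. Of 1156 probes well above background in all controls and in 1 or 2 alkaline salt plants, 231 (20%) were lower and 0 were higher. Over all tested probes 8.01% were higher and 9.85% lower. These classes are defined by unequal detection in the groups compared, so the direction of their calls largely follows from the definition and is no result. The change of these probes rests in part on signals at background. The number of probes above background differed between arrays of the same group too, with 17210, 17497 and 21017 in alkaline salt replicates 1 to 3 and 17876, 20232 and 17220 in control replicates 1 to 3. Alkaline salt replicate 3, with the most probes above background of the 6, also had the lowest net signal of negative control spots, at 535. The part of this in the detection classes was not tested.

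The balance of rises and falls differed with signal strength, in a way that depended on the scaling. Mean signal was taken over all 9 arrays, most of them control or salt arrays. Where salt plants lay near the controls, most averaged values are thus low at a rise and high at a fall. This by itself places rises in dimmer bins and falls in brighter ones, and its part in the shares below was not tested. When the tested probes were divided into 4 equal bins by mean signal over all 9 arrays, 7.19%, 7.73%, 10.3% and 14.2% of probes were lower in alkaline salt, from the dimmest bin to the brightest. After scaling to the array median this course turned, to 6.65%, 3.39%, 2.99% and 2.92%. Calls became fewer in both directions there, with 8.9%, 3.17%, 2.74% and 2.65% higher. With 38.5% to 50.6% of probes well above background per array, the array median is a signal at or near background. In the main fit the shares higher were 9.98%, 6.94%, 7.39% and 7.71%, largest in the dimmest bin. With normexp correction the share higher was larger in the brightest bin (12.2%) than in the dimmest (10.2%). In the brightest bin 343 probes were higher and 630 lower, and in the dimmest 444 were higher and 320 lower. Falls outnumbered rises in the brightest bin under each of the 4 other ways of scaling or background correction tried. Quantile normalisation gave 416 higher and 683 lower there, the percentile over detected probes 427 and 613, and normexp correction 544 and 798. Scaling to the array median gave 118 and 130, which is close to balance. In the dimmest bin rises outnumbered falls under the same 4.

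Size followed another pattern. Of the probes at least 4-fold higher, 185 lay in the dimmest bin, against 73, 76 and 77 in the next 3. The placing of rises by their own mean signal applies to these counts too. Of those at least 4-fold lower, 107, 67, 53 and 38 lay in the bins from dimmest to brightest. The spread differed as well: the median residual SD was 0.49 in the dimmest bin and 0.33, 0.29 and 0.29 in the others, so a change of a given size stood farther above the spread in a bright probe. Only 1990 of the 4451 probes of the dimmest bin were well above background on all 6 arrays, against 4439 of 4450 in the brightest.

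**Figure D4:**
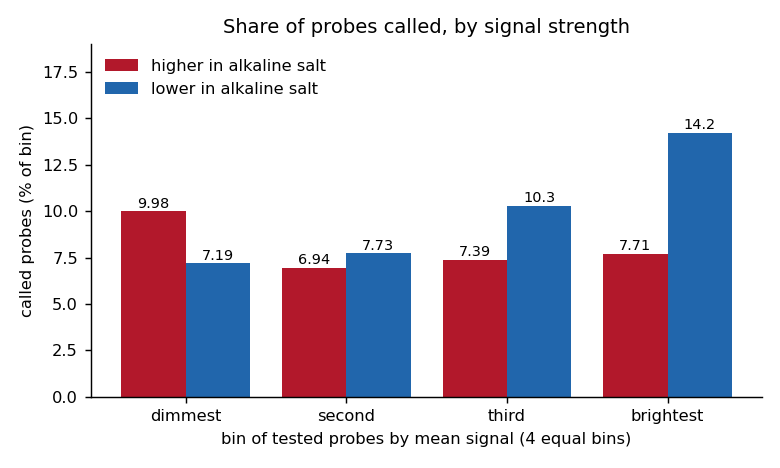
Bars give the percentage of tested probes called higher (red) or lower (blue) in alkaline salt, in 4 equal bins of tested probes by mean log2 scaled signal. The share called lower goes up to 14.2% in the brightest bin. After scaling to the array median, a signal at or near background, 2.92% were lower and 2.65% higher in that bin. The share called higher is largest in the dimmest, at 9.98%, but with normexp correction was larger in the brightest (12.2% against 10.2%).

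Probes named for assembled sequences (identifiers beginning with TC or TA) were also somewhat brighter than the rest. Their median mean signal was 0.85 on the log2 scaled scale, against 0.34 for probes named for other sequence records. Of 6514 tested probes of the first kind, 7.61% were higher and 11.7% lower, and of 11287 of the second kind, 8.23% were higher and 8.78% lower. Within the brightest bin the shares lower were 15.5% and 13.1%, a smaller gap, and the shares higher 6.99% and 8.28%, a larger gap. Within the dimmest bin the shares lower were 8.21% and 6.74%, and the shares higher 9.53% and 10.2%. None of these gaps was tested.

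The plants of a group were not alike at the called probes. At the 1027 probes that were higher and measured on all 6 arrays, the median distance above the mean of the controls was 1.40, 1.18 and 1.32 on the log2 scale in alkaline salt replicates 1 to 3. At the 1386 probes that were lower it was −1.14, −1.07 and −1.37. The probes were called on these same arrays, so the distance of the alkaline salt plants from the controls was fixed by that choice and only the differences between plants are described. Alkaline salt replicate 3 was farthest from the controls in the falls. The median SD among alkaline salt plants was 0.22 at the probes that rose, 0.33 at those that fell and 0.23 at those not called, against 0.31, 0.31 and 0.29 among control plants. Among salt plants, which share in the fitted spread, it was 0.24, 0.19 and 0.25.

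Control replicate 3 lay nearest to the alkaline salt plants more often than either other control did. It was the control closest to the alkaline salt mean for 53.7% of the rises and 69.6% of the falls, and for 46.7% of all probes measured on 6 arrays. At the falls its median distance from the mean of the controls was −0.23, against 0.08 and 0.12 for control replicates 1 and 2, and at the rises it was 0.15, against 0.03 and −0.18. Without this plant 1761 probes were higher and 1995 lower, and the falls of at least 4-fold numbered 407. Other plants moved the counts down by more than 1.5 times: 782 were higher and 811 lower without alkaline salt replicate 3, and the falls numbered 966 without control replicate 1 and 998 without control replicate 2.

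The salt plants, set beside the same controls, lay close to them at these probes. Their median distance from the control mean was 0.20, 0.11 and 0.00 at the rises and −0.26, −0.29 and −0.19 at the falls. These values share the control plants with the comparison that chose the probes, and are given as a description.

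**Figure D5:**
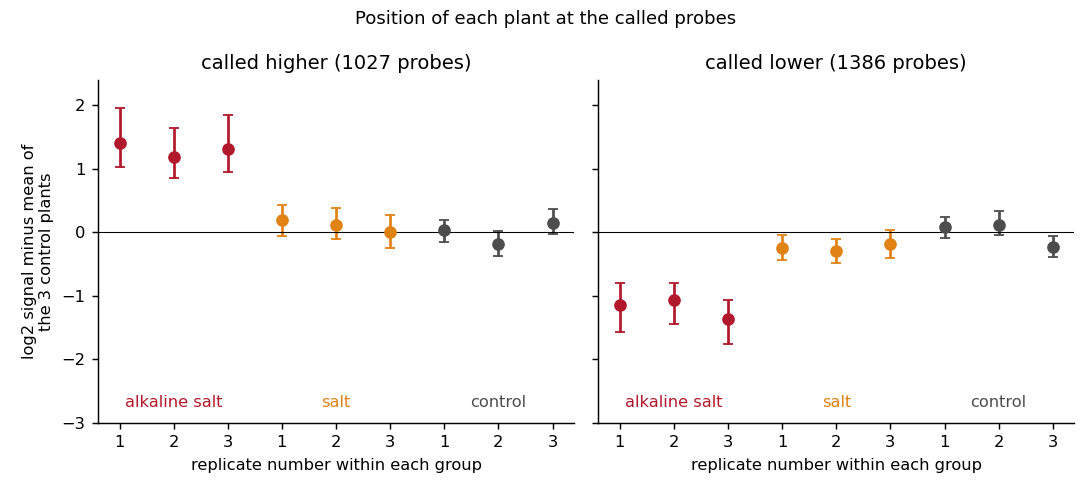
Points give the median, and bars the quartiles, of the log2 scaled signal of each plant minus the mean of the 3 controls, over the 1027 probes called higher (left) and the 1386 called lower (right) among those measured on all 6 arrays. Alkaline salt plants sit at 1.18 to 1.40 on the left and −1.37 to −1.07 on the right, salt plants between −0.29 and 0.20, and control replicate 3 on the alkaline salt side in both panels.

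The arrays lay on 3 slides, each with 1 array of every group, and the slide was also the scan and the replicate number. Over the probes that rose, the median difference between alkaline salt and control on the same slide was 1.36, 1.38 and 1.12 on slides 1 to 3, and over those that fell −1.24, −1.22 and −1.17. Slide 3, which held control replicate 3, thus gave the smallest difference in both directions. The probes were called on these same arrays, so the direction and large size of these medians follow from that choice. Over all 14948 probes measured on 6 arrays the medians were −0.01, 0.03 and −0.09 on slides 1 to 3. A change of at least 2-fold in the same direction on all 3 slides was found for 478 probes higher and 574 lower of 14948, of which 449 and 550 were called. With the slide as a block in limma, 1207 of the 1425 higher and 1480 of the 1754 lower calls remained.

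For the 4 named probes the slides gave unequal sizes. Their one direction on every slide was fixed by the naming rule, which took only probes whose groups did not overlap. A_46_P183159 was higher by 6.44, 6.02 and 6.48 on the log2 scale on slides 1 to 3, and A_46_P275293 by 5.78, 5.13 and 5.16. A_46_P144744 differed by −6.11, −6.73 and −3.09. A_46_P343070 differed by −4.52, −5.53 and −1.83. Slide 3 gave the smallest fall for both, through a high alkaline salt plant in the first and a low control plant in the second.

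Transcripts with several probes gave a second reading of the same RNA. Of 1192 transcript identifiers with more than 1 tested probe, 251 had a called probe, and opposite calls within a transcript numbered 0. All probes of the transcript had the same sign in 97.6% of these 251, against 85.7% of the 941 without a call. A call picks large differences, and the sign of a small difference turns easily, so this gap follows in part from the choice. Among the 1002 transcripts with exactly 2 tested probes, both were called in the same direction in 125 and only 1 was called in 89. The log2 differences of the 2 probes lay 0.18 apart in the median where both were called, and 0.42 apart where 1 was. Sorting pairs by their calls favours unlike values where only 1 was called, so this too follows in part from the choice. Probes of a transcript share the RNA of the same plants, so they are not replicates of the treatment.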

How the data were processed

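Leaf RNA of 9 plants was measured on 1-colour arrays, 3 per group, grouped by sample title. The authors' scanner files give the linear intensity of each spot, extracted with Agilent Feature Extraction 10.1.1.1 per the file headers; per the submitters' processing notes the version was 10.5.1.1. Processed intensity was background-subtracted and detrended within each array, per the file headers. The scan dates precede the growing period given in the labels, for a reason not given in the sources used here. The authors also deposited a table of log2 values, whose making is not given in the sources used here. It lay within 0.0891 of quantile-normalised log2 processed intensity and was used as an alternative.

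Of 45220 spots per array, 1417 controls were left out, and 71 outlier spot values over all arrays were set to missing. Spots of a probe were averaged on the log2 scale and the 75th percentile of the array was subtracted. All 9 arrays were fitted with limma 3.58.1 in R 4.3.3 (group means, eBayes, two-sided, Benjamini-Hochberg over 17801 probes). A probe was well above background where any of its spots was. Intervals cover the spread between 3 arrays per group, with the salt group included. The fit was tested on simulated data.

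Named probes are the 2 largest rises and 2 largest falls among called probes well above background on all 6 arrays compared, with groups that do not overlap. The members, the naming rule and the alternatives were chosen with earlier results of these data known. The gene lists and marker lists that had been written down (iron deficiency, sodium and proton transport, osmolytes, abscisic acid, phosphate starvation, photosynthesis, senescence, oxidative stress, organic acids; leaf, root, vascular and epidermal markers) were not used, because no table used here pairs probes with genes. Same-numbered alkaline salt and control arrays shared a slide and a scan. Their deviations from their group means correlated at 0.35, 0.05 and 0.03. The labels do not say that a number also marks a shared batch of plants. Figures were drawn with matplotlib 3.10.9.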

Additional observations from a re-analysis of the deposited data

How the results depend on the processing

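With no single array left out, 14 alternatives were run on the counts of rises and falls and on the counts of those of 4-fold or more. They included a fit of only the 6 arrays compared, which gave 1213 higher and 1229 lower. Each count moved by more than 1.5 times under 2 of the 14 alternatives. Rises numbered 777 and falls 710 after median scaling, and 794 and 681 with no filter on dim probes (43603 probes tested). Rises of 4-fold or more numbered 167 and such falls 44 with normexp correction, and 191 and 101 among probes that all 9 arrays showed well above background. The absent filter and the stricter filter change the probes tested; for the others the cause was not tested. Normexp was run on median spot signals, as no mean spot signal was used here. Leaving out single arrays gave 782 to 1761 higher, 811 to 1995 lower, 308 to 522 rises of 4-fold or more and 153 to 407 such falls; the last count was 153 without alkaline salt replicate 3, 162 without control replicate 2 and 407 without control replicate 3. The replicate block, which is also the slide block, gave 1272 higher and 1626 lower, moved no count by more than 1.5 times and changed no call of a named probe. The slide as a random block had a correlation of 0.04. No named probe changed direction: A_46_P183159 stayed called in 21 of 21 alternatives, A_46_P275293 and A_46_P144744 in 22 of 22, and A_46_P343070 in 17 of 22. The number of arrays limits precision.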
